A study of Drosophila melanogaster with 12 samples.

Results

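Loss of aly, which encodes a subunit of the testis meiotic arrest complex (tMAC), was examined by setting the testis transcriptome of aly mutants against that of the control strain y,w, called yw here. The comparison rested on 6 of the study's 12 arrays, namely the 3 labelled aly mutant testis and the 3 labelled yw, each an Affymetrix Drosophila Genome 2.0 array of 1 RNA sample. The aly males carried the allele pair aly2/aly5P, and the labels give neither the lesions nor whether these males also carried the y and w mutations of the control. The yw males carried no allele of aly or sa that the labels name. Where the difference from another arrest mutant is given, it rests on the 3 arrays labelled sa (sa1/sa2), a mutant of a testis-specific TFIID subunit. All males were 1 day old and raised at 25 °C, and each RNA sample came from whole testes pooled from about 200 pairs, so every level is a mean over germ cells and somatic cells of the organ. The remaining 3 arrays, labelled bam, entered the estimate of the spread, the choice of each gene's probe set and 1 description below.

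Germ cells of the fly testis divide as spermatogonia, grow for days as primary spermatocytes, pass through the meiotic divisions and then elongate into sperm. Spermatocytes switch on a large testis-specific program, much of which is translated only later in spermatids. That program needs tMAC, the relative of the Myb-MuvB complex used in testis, whose subunits include Aly, Comr, Tomb, Topi and the TGIF homeodomain proteins Achi and Vis. It also needs testis paralogs of TFIID subunits (testis TAFs), among them Sa. In mutants of either group the germ cells arrest as mature primary spermatocytes and no spermatids form. The testes of yw hold all stages including spermatids, whereas those of aly are filled with arrested spermatocytes, so the effect of losing the regulator and that of lacking later stages cannot be told apart in these data. In such bulk samples fewer cells of a type and less RNA per cell cannot be told apart either.

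The deposited values were linear probe-set intensities, read here as log2(intensity + 16). A gene was represented by its probe set with the highest mean over all 12 arrays. Across all tested probe sets the aly arrays correlated with each other at r = 0.9948 to 0.9971, the yw arrays at 0.9815 to 0.9943 and aly with yw arrays at 0.6935 to 0.7298. The array of yw replicate 2 stood apart, with r = 0.9815 and 0.9825 to the other yw arrays and the lowest array weight of the 12 (0.232). Among the aly and yw arrays it also held the most RNA of accessory gland genes, as described below. Without it 5044 genes were called in place of 5177, of which 4941 were called in the same direction with it and 0 in the opposite direction. The deposited scale set the median gene 0.15 higher in aly than in yw on the log2 scale. Centring each array on its cytosolic ribosomal protein genes put that median at -0.79, quantile normalization at 0.17 and median centring of probe sets at 0.28, and every difference below is relative to the deposited scale. Counts of genes called higher in a group are given with ribosomal centring too, because among the scalings it moved them most.

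The mutated genes were read first. The transcript of aly measured 132, 134 and 148 in the aly arrays and 87.1, 83.7 and 89.4 in the yw arrays. The aly arrays were thus slightly higher without overlap, by 0.58 on the log2 scale, which missed the fold of 2 (limma adjusted p = 0.0119). A mutant transcript can persist, and whether this probe set overlaps either lesion was not analysed here, so it checks no label. The transcript of sa measured 7616, 6878 and 7589.6 in aly and 1518, 1179 and 1515 in yw, a difference of 2.39, so sa RNA was higher, not lost, in aly. The pigmentation gene y measured 96.4, 93.5 and 103 in aly and 36.5, 53.9 and 38.6 in yw. It was not called (0.96), but passed without yw replicate 2 (1.08) and with quantile normalization (1.23).

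A gene or probe set was called where the limma Benjamini-Hochberg adjusted p, over all 18769 tested probe sets, was under 0.05 and the fold at least 2. By this rule 5972 probe sets (31.8%) differed between aly and yw testes, with 3902 (20.8%) higher and 2070 (11.0%) lower in aly. Of 11982 genes, 5177 (43.2%) were called, 3382 (28.2%) higher and 1795 (15.0%) lower. Higher calls made up 65.3% of all calls on the deposited scale, 63.9% with quantile normalization, 68.0% with median centring and 28.5% with ribosomal centring, where 1501 genes were higher and 3762 lower. The sizes of the changes were unequal in the opposite sense. Lower by at least 8-fold were 1102 genes, against 295 higher by as much. At 32-fold the counts were 611 lower and 2 higher, and at 64-fold 336 lower and 0 higher.

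**Figure D1:**
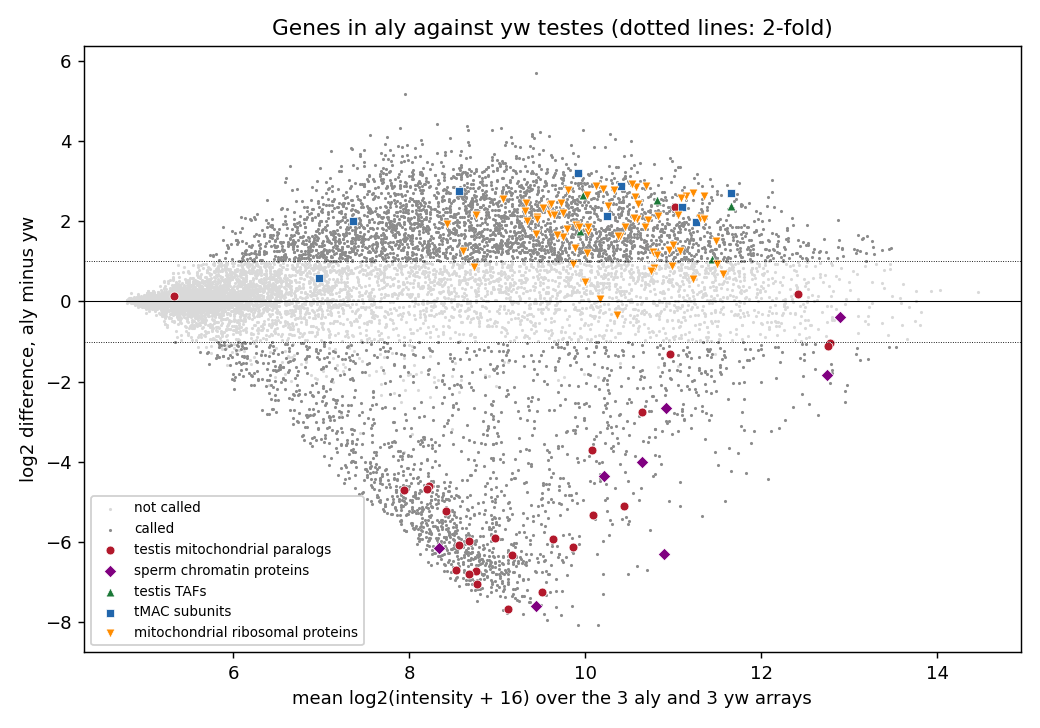
Difference of aly minus yw (log2, vertical axis) against the mean log2(intensity + 16) over the 6 arrays (horizontal axis), 1 point per gene, called genes in dark grey and 5 lists in colour. The genes called higher form a broad cloud that rarely passes 4 on the log2 scale, whereas the genes called lower reach beyond -7, with testis mitochondrial paralogs among them and tMAC, testis TAF and mitochondrial ribosomal protein genes in the upper cloud.

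Many transcripts that were bright in yw testes sat at the dim end of the range in aly, called the floor below. Intensities under 32 in all 3 aly arrays and over 1000 in all 3 yw arrays were found for 214 genes, whereas the reverse was found for 1 gene, CG4133. At the milder limits of 50 and 500 the counts were 579 and 14. The deepest difference was that of CG12860, an uncharacterised gene, which measured 34.5, 72.5 and 29.8 in aly and 16271, 15215 and 15756 in yw, 267-fold lower. Close to it lay CG9016, with 51.1, 60.2 and 49.8 in aly and 18469.6, 18547 and 18633 in yw, and CG30039, with 34.4, 33.8 and 28.4 in aly and 12796, 11375 and 11635 in yw. Non-overlap of the aly and yw arrays was a condition for naming the 10 deepest genes, so it is no further result. The rest of the 10 genes with the deepest differences were robl62A, a dynein light chain of the roadblock family (-7.83), w-cup (-7.80), the cytochrome oxidase subunit paralog COX5BL (-7.66) and the uncharacterised CG30376, CG5614, CG4983 and CG5762 (-7.79 to -7.62). Because the aly values were near the floor of the arrays, these folds depend on the pseudocount and are best read as large.

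The 214 genes were also described by features that their choice did not use. Of them 171 (79.9%) still carried only a CG or CR number as their name, against 43.6% of all genes, 64.6% of the genes called lower and 33.9% of those called higher. In the bam arrays, whose testes hold dividing spermatogonia, 211 of the 214 lay under 50 in every array, with a median over genes of 22.2. The median over all tested probe sets was 45.8, 45.1 and 44.9 in the bam arrays, so a value under 50 was common there. The share of all genes under 50 in every bam array was not counted, so the count cannot show whether this sets the 214 genes apart. In the sa arrays the median of their means was 340, with a range of 28.0 to 2670. None was under 32 in all 3 sa arrays, and 15 were over 1000 in all 3. The named members included the vacuolar ATPase subunit paralog Vha68-3, the ATP synthase paralog ATPsynCF6L, the protamine gene ProtB, the proteasome paralog Prosbeta5R1, the import paralogs ttm3 and Tim17a1, and djl, saturn and t-cup. On chromosome arm 2L 64 of 2203 genes (2.91%) met the rule, against 18 of 1869 (0.963%) on the X and 1.38 to 1.88% on 2R, 3L and 3R.

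Genes of sperm chromatin and of the sperm tail were among the most reduced. Of 8 measured sperm chromatin genes 7 were lower in aly and 1 was not called, beside 15.0% of all genes lower. Their median was -4.18, beside 0.15 over all genes. Mst77F, a linker-histone-like protein of sperm nuclei, measured 229, 192 and 175 in aly and 16445, 16421 and 17908 in yw (-6.31 ± 0.15, SE; limma adjusted p = 4.23e-11). The groups lay far apart without overlap. The protamine gene ProtB measured 22.6, 20.3 and 23.9 in aly and 3009, 2018 and 3311 in yw, and ProtA 357, 359 and 451 in aly and 7295, 5071 and 7076 in yw. Mst33A was at the floor in aly as ProtB was (-7.60 against -6.16), and Tpl94D, a transition-protein-like gene, fell by 4.36 on the log2 scale. The HMG-box gene tHMG1 was -1.82, and its paralog tHMG2 was not called (-0.38).

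The don juan, Mst36F and janus genes gave 4 lower of 6 measured and 2 not called, with a median of -3.93. Each list count of this paragraph stands beside 15.0% of all genes called lower. The sperm-tail gene dj measured 17.2, 17.0 and 16.9 in aly and 464, 569.8 and 618 in yw (-4.09). Its relative djl measured 20.6, 17.3 and 19.0 in aly and 2261, 3732 and 4048 in yw (-6.54), and both were thus at the floor in aly. Mst36Fa (-4.62) and janB (-3.77) were lower too, whereas Mst36Fb was dim in both genotypes. Of the cup genes, which are transcribed after meiosis and whose RNAs collect at spermatid tail ends, 9 of 11 were lower and 2 not called (median -4.45), and of the comet genes 4 of 5 were lower and 1 not called (median -4.05). Here t-cup measured 18.5, 17.7 and 15.7 in aly and 3219, 2722 and 3174 in yw, and sowi, a comet gene, 81.7, 47.2 and 47.1 in aly and 8111, 8149 and 8214 in yw. The other deepest members were c-cup (-6.38), wa-cup (-5.91), h-cup (-5.60), sunz (-5.62) and boly (-4.05).

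Axoneme genes ranged from strongly reduced to near yw levels. Of 19 measured axonemal dynein, tektin and radial spoke genes 13 were lower, 0 higher and 6 not called, with a median of -1.69, and with ribosomal centring 17 were lower. Of all genes 15.0% were lower, and 3762 of 11982 with ribosomal centring. The deepest were Tektin-A, with 42.0, 34.1 and 30.9 in aly and 5825, 4407 and 5601 in yw, and the radial spoke genes Rsph9 (-6.07), Rsph3 (-5.32) and Rsph1 (-5.08). Tektin-C measured 166, 152 and 137 in aly and 5533, 4845 and 6101 in yw. For both tektins, filament proteins of the axoneme, the groups were far apart. Among the 6 that were not called, Rsph4a measured 3343, 2981 and 3577 in aly and 3759.7, 2906 and 4103 in yw, and the sperm dynein intermediate chain Sdic1 3059.8, 2742 and 3414 in aly and 4081, 3053 and 4339 in yw. The dynein heavy chain Dhc98D measured 844, 649 and 574 in aly and 566, 839.8 and 627 in yw, with overlapping arrays.

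The Y chromosome carries a handful of male fertility genes that are transcribed in spermatocytes, some as giant loops. Of 7 measured ones 6 were lower in aly and 1 was not called, beside 15.0% of all genes lower. The median was -1.93. Pp1-Y2, a protein phosphatase 1 paralog, measured 36.3, 34.8 and 26.2 in aly and 1140.4, 1128 and 1400.3 in yw, and ARY measured 54.3, 46.0 and 48.7 in aly and 467, 559.8 and 606 in yw. ORY (-2.70) and Ppr-Y (-1.93) had the next largest differences. The giant dynein genes kl-3 and kl-5 were called lower (-1.27 and -1.56), but yw replicate 1 was near the aly level for both, and kl-2 was not called (-0.66). For kl-5 the values were 15.2, 14.9 and 14.0 in aly and 27.2, 119 and 112 in yw.

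Testis paralogs of mitochondrial proteins formed the list with the lowest median, -5.28 over 26 measured genes. Of these 23 were lower, 1 higher and 2 not called, beside 15.0% of all genes lower and 28.2% higher. Sperm mitochondria fuse and elongate along the tail, and fzo, the spermatid mitofusin, measured 42.4, 30.1 and 25.3 in aly and 1009, 1249 and 1499.8 in yw (-4.70 ± 0.19, SE; limma adjusted p = 3.11e-09). The import receptor paralog tomboy20 measured 34.1, 55.6 and 41.6 in aly and 9171, 8317 and 9392 in yw, a difference of -7.25. COX5BL, named above, measured 22.1, 25.9 and 21.9 in aly and 8326, 7503 and 7989 in yw. For all 3 the aly arrays were at or near the floor and the yw arrays bright. The import paralog ttm3 (-7.05) and the complex III paralog UQCR-11L (-6.80) behaved alike in size. At the shallow end, Hsp60C, a chaperonin paralog, measured 5064, 5063 and 3986 in aly and 10180.5, 9969 and 10421 in yw, and COX4L 5150.2, 4746 and 4806 in aly and 10853, 8706 and 10633 in yw. The exception was ATPsynbetaL, a paralog of the ATP synthase beta subunit, which was higher, with 4861, 4600.5 and 4596 in aly and 1016, 762 and 948 in yw.

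None of the general counterparts of these paralogs was called lower on the deposited scale. Pairs were matched by name after values had been seen, so their counts are a description. Of 17 mitochondrial pairs the testis paralog was lower in 16 and higher in 1, while of the 15 general counterparts 6 were higher, 0 lower and 9 not called, with a median of 0.78. Of the 9, UQCR-11 was at the floor in both genotypes and could not show a loss. With ribosomal centring that median was -0.15, with 0 higher and 1 lower, so a direction for the counterparts depends on the scale. Of all genes 28.2% were higher and 15.0% lower on the deposited scale, and 1501 and 3762 of 11982 with that centring. COX5B, the general partner of COX5BL, measured 4999, 5719.5 and 4644 in aly and 2234, 1500.0 and 1754 in yw, and Marf, the general mitofusin, 454, 423 and 527 in aly and 170.5, 153 and 188 in yw. Tom20, the general partner of tomboy20, measured 6582, 6158 and 6625 in aly and 5303, 5954 and 6087 in yw and was not called.

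Proteasome genes showed a like contrast between testis paralogs and general subunits. Of 13 measured testis paralogs of proteasome subunits 8 were lower, 2 higher and 3 not called (median -3.11), while all 9 general counterparts were higher, with a median of 1.77 (4 of 9 with ribosomal centring, median 0.83). Of all genes 28.2% were higher and 15.0% lower, and 1501 and 3762 of 11982 with ribosomal centring. Prosalpha6T, an alpha-ring paralog, measured 31.3, 32.5 and 43.1 in aly and 6173, 4944 and 6045 in yw. Its general counterpart Prosalpha6 measured 7289.9, 7384 and 9027 in aly and 1529, 1235 and 1366 in yw. Members of the pair thus moved in opposite directions, as in 8 of the 13 proteasome pairs and 7 of the 17 mitochondrial ones on the deposited scale. With ribosomal centring no mitochondrial counterpart was higher, so no mitochondrial pair had a lower testis paralog and a higher counterpart. Prosbeta5R1 (-6.75) and Prosalpha4T2 (-5.34) were similarly reduced. The regulatory-particle ATPase paralogs went the other way, with Rpt4R at 6334, 6309 and 6408 in aly and 1900.4, 1614 and 1757 in yw and Rpt3R at 1.29, although neither was called with ribosomal centring.

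**Figure D2:**
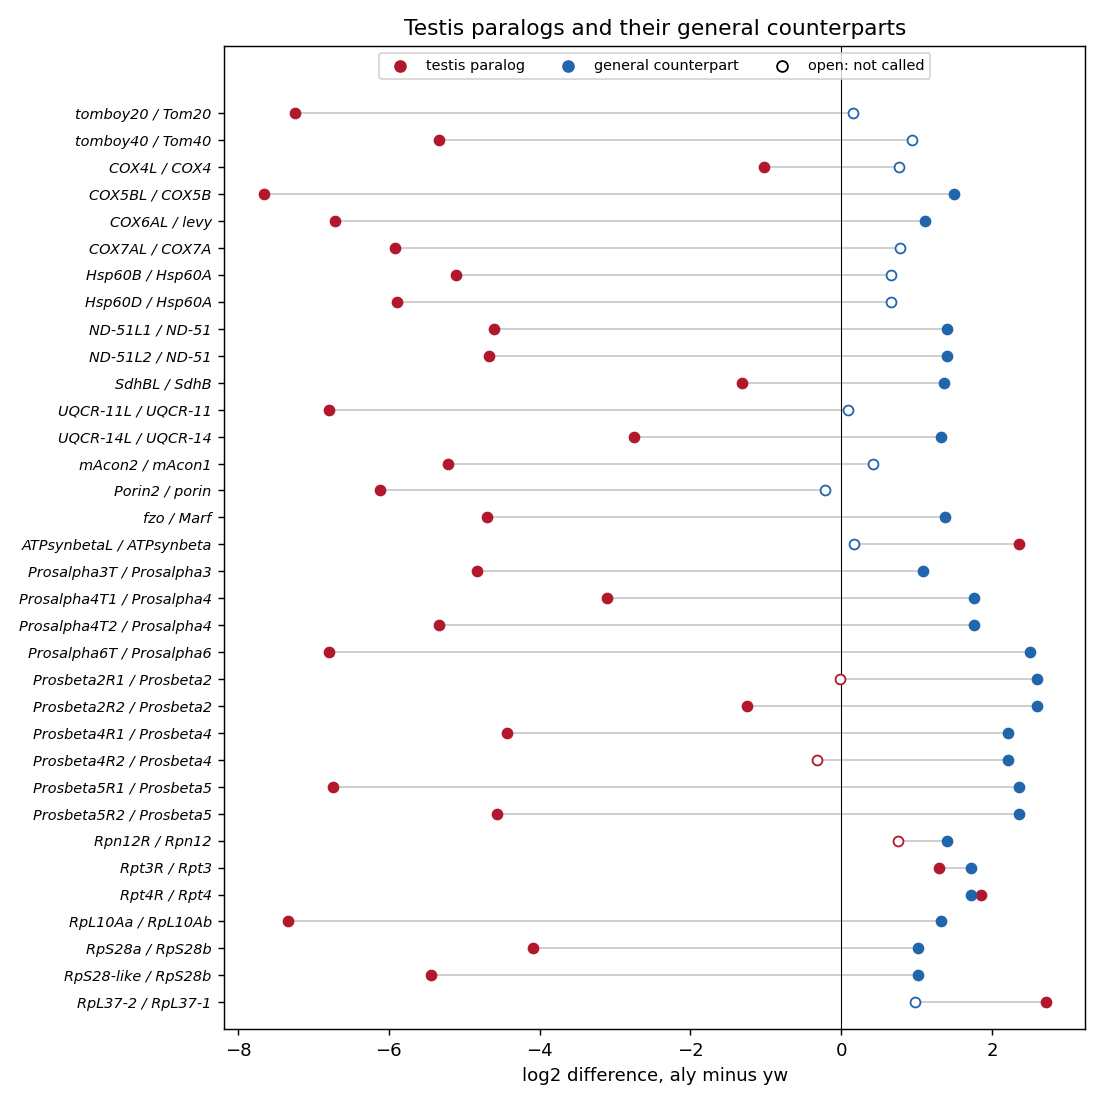
Difference of aly minus yw (log2, horizontal axis) for each testis paralog and its general counterpart, 1 row per pair joined by a line, with filled points called and open points not called. Most testis paralogs lie left of -4, while their general counterparts lie between about 0 and 3.

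Ribosomal protein genes were mostly higher, apart from a few testis copies. Of 41 cytosolic ribosomal protein genes 31 were higher, 3 lower and 7 not called, with a median of 1.31. Ribosomal centring is computed from these same genes and so gives no check on this list. The 3 lower ones were the testis copies RpL10Aa, with 32.9, 37.9 and 28.1 in aly and 9478, 6343 and 8099.8 in yw, RpS28-like (-5.44) and RpS28a (-4.09). The largest rise of any gene was that of RpL22-like, a paralog of RpL22 found in germ cells. It measured 5194, 4722 and 5035 in aly and 90.5, 63.9 and 91.4 in yw, 51.5-fold higher (limma adjusted p = 4.88e-10). RpL37-2 was also higher (2.72). Of 69 mitochondrial ribosomal protein genes 58 were higher, 0 lower and 11 not called, with a median of 2.04, and with ribosomal centring 36 were higher, 1 lower and the median was 1.10. Examples were mRpL40 (2.93), mRpL21 (2.89) and mRpS30 (2.88). Both ribosomal lists stand beside 28.2% of all genes higher and 15.0% lower, and 1501 and 3762 of 11982 with ribosomal centring.

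A subset of spermatid genes stayed bright in aly on the deposited scale. The members named in this paragraph were chosen after their values were seen. Among 7 Mst genes of sperm-tail proteins 3 were lower and 4 not called, beside 15.0% of all genes lower. Their median was -0.85. Mst98Cb measured 9318, 8200.2 and 9821 in aly and 9653, 9246 and 11247 in yw, with overlapping arrays, and Mst84Dc 9824, 10833 and 9414 in aly and 13648, 11954 and 13732 in yw. Mst87F, which was named by rule, was called lower but remained bright, with 3601, 4278 and 3837 in aly and 17184, 15625 and 16803 in yw (-2.08). The janus-cluster gene ocn measured 8876, 8697 and 8923 in aly and 12741, 12197 and 13472 in yw, the leucyl aminopeptidase gene S-Lap2 8364, 8269 and 8440.2 in aly and 11127, 9424 and 11806 in yw, and the comet gene hale 4332, 4425 and 3816 in aly and 4649.7, 4290.2 and 4805 in yw. ATPsynGL, an ATP synthase paralog, measured 5798, 6204 and 5535 in aly and 5889, 4528 and 4991 in yw. The cup gene m-cup measured 5547, 5039.6 and 5020.3 in aly and 5039, 5095 and 5674 in yw. None of these was called apart from Mst87F, but this depends on the scale. With ribosomal centring all 7 Mst genes, S-Lap2 (-1.30) and all 5 comet genes, hale among them, were called lower, as were 5 of the 6 don juan, Mst36F and janus genes and 10 of the 11 cup genes. Of all 11982 genes 3762 were lower with that centring. Of the 4 S-Lap genes 3 were lower on the deposited scale. S-Lap5 measured 103, 117 and 109 in aly and 4776, 3677 and 4284 in yw.

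**Figure D3:**
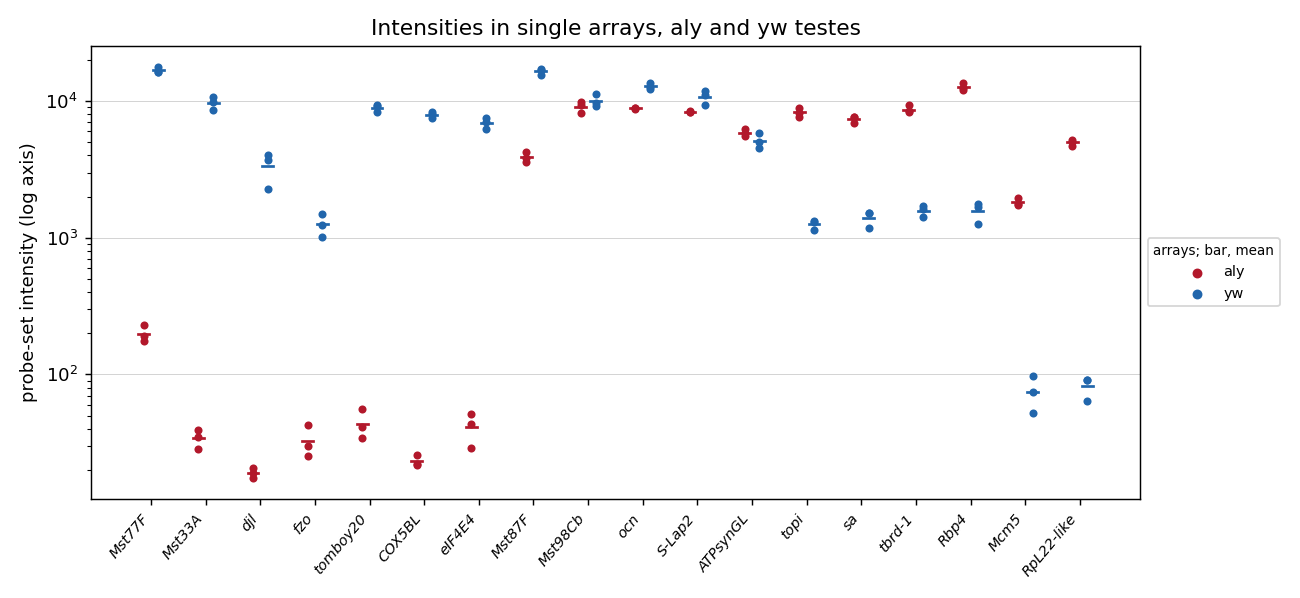
Intensities (vertical log axis) of 18 genes in the 3 aly arrays (left, red) and 3 yw arrays (right, blue), with a bar at each mean. From left to right stand spermatid genes that were far lower in aly (Mst77F to eIF4E4), spermatid genes that stayed bright in aly (Mst87F to ATPsynGL), and genes higher in aly (topi to RpL22-like).

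Regulators of the meiotic divisions did not move as a group. Of 7 measured ones 1 was higher, 2 lower and 4 not called, with a median of -0.84, beside 28.2% of all genes higher and 15.0% lower. With ribosomal centring 1 was higher and 4 lower, beside 1501 higher and 3762 lower of all 11982 genes. The RNA-binding protein gene bol, which is needed for translation of twe, measured 373, 343 and 360.2 in aly and 4409.5, 5936 and 5491 in yw (-3.81 ± 0.29, SE; limma adjusted p = 6.04e-07). This call rests on 1 of its 3 probe sets, the other 2 being at the floor in both genotypes. CycB, the B-type cyclin of mitosis and meiosis, measured 55.1, 64.4 and 75.8 in aly and 219, 170.2 and 261 in yw (-1.51 ± 0.13, SE; limma adjusted p = 1.74e-06). The Cdc25 phosphatase gene twe measured 70.5, 53.5 and 64.7 in aly and 149.9, 93.8 and 155 in yw. Its aly arrays were all below its yw arrays, but the difference of -0.89 missed the fold of 2, which it passed without yw replicate 2 (-1.10) and with ribosomal centring (-1.83). Rbp4, a repressor of CycB translation, was higher, with 13545, 12569.6 and 11978 in aly and 1761, 1257 and 1667 in yw (3.02). Its partner fest was not called (-0.84).

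Paralogs of translation initiation factors are expressed in spermatocytes, where many transcripts wait for translation. Of 10 measured initiation factors and CPEB relatives 5 were lower, 1 higher and 4 not called (median -1.13), and with ribosomal centring 7 were lower. Of all genes 15.0% were lower, and 3762 of 11982 with ribosomal centring. eIF4E4, a testis cap-binding paralog, was near the floor, with 43.4, 51.5 and 29.1 in aly and 7033, 6287 and 7512 in yw. eIF4G2, needed for male meiosis, measured 1438, 1007 and 1117 in aly and 3382, 6504 and 4789 in yw, and orb2, a CPEB translational regulator, 1244, 1069 and 1317 in aly and 4659, 4343 and 5317 in yw. By contrast eIF4E3, another cap-binding paralog of the testis, measured 14495, 14009 and 15371 in aly and 12134, 9442 and 10908 in yw and was not called. Rb97D, which binds transcripts of a Y-chromosome loop, was the member called higher (1.43), a call not made with ribosomal centring. Sperm individualization genes gave 4 lower, 2 higher and 3 not called of 9, beside 15.0% of all genes lower and 28.2% higher. With ribosomal centring 7 were lower and 1 higher, beside 3762 lower and 1501 higher of all 11982 genes. klhl10, a Cullin-3 adaptor, measured 16.9, 18.9 and 20.7 in aly and 719, 1593 and 1638 in yw, and the initiator caspase Dronc was higher (2.48).

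Genes of tMAC itself were higher in aly testes. Of 9 measured subunits 8 were higher and 1, aly, was not called, with a median of 2.35, and the same 8 of 9 were called with ribosomal centring (median 1.42). The zinc-finger subunit gene topi measured 8962, 8134 and 7692 in aly and 1309.6, 1131 and 1326 in yw (2.70 ± 0.13, SE; limma adjusted p = 1.36e-08). The CXC-domain subunit gene tomb measured 2879, 3025 and 2861 in aly and 371, 228 and 324 in yw (3.21). The differences for vis (2.88), comr (2.75), Caf1-55 (2.35), wuc (2.12), achi (2.01) and mip40 (1.97) were of like size. In each of these 8 genes all aly arrays lay above all yw arrays. Such separation was common, since the arrays did not overlap, in either direction, in 8324 of all 11982 genes. All 5 testis TAFs were higher as well, with a median of 2.39, and 3 of 5 with ribosomal centring. Beside the counts of both groups stand 28.2% of all genes higher, and 1501 of 11982 with ribosomal centring. The paralog of Taf6, mia, measured 2766, 2298 and 2469 in aly and 390.0, 334 and 435 in yw, that of Taf4, nht, 4296, 4270.2 and 4375 in aly and 832, 619.8 and 780.3 in yw, and that of Taf5, can, was at 1.75 (0.81 and not called with ribosomal centring). Taf12L had the smallest difference (1.07), which rests on the brighter of 2 probe sets and fell below the fold of 2 without yw replicate 2 (0.95).

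Early spermatocyte chromatin factors rose with them. Of 7 measured genes 5 were higher, 1 lower and 1 not called (median 2.27), with the same counts under ribosomal centring. Of all genes 28.2% were higher and 15.0% lower, and 1501 and 3762 of 11982 under ribosomal centring. The testis bromodomain genes were tbrd-1, with 9315, 8298 and 8429 in aly and 1617, 1409 and 1716 in yw, tbrd-2, with 8788, 6377 and 5806 in aly and 841, 832 and 976 in yw, and tbrd-3 (2.62). The zinc-finger gene kmg (2.23) and the linker histone gene BigH1 (2.27) were also higher. The member that fell was betaTub85D, the tubulin of the testis, with 5840.1, 5568 and 5882 in aly and 15753, 14833 and 16350.0 in yw.

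The somatic relatives of these regulators were higher too. Of 12 general TAFs and Tbp 8 were higher and 4 not called (median 2.14, 6 with ribosomal centring), led by Taf6 (2091, 2145 and 1948 in aly and 242, 174 and 197 in yw) and Taf5 (3.06). Of 8 somatic Myb-MuvB and E2F genes 7 were higher and 1 not called (median 1.75, 4 with ribosomal centring), with mip120 at 2.26 and lin-52 at 2.13. These shares stand beside 28.2% of all genes called higher, and 1501 of 11982 with ribosomal centring.

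DNA replication and mitotic genes, which dividing spermatogonia use, were also higher. Of 22 measured replication genes 17 were higher and 5 not called (median 2.31, 13 with ribosomal centring). Both lists of this paragraph stand beside 28.2% of all genes higher, and 1501 of 11982 with ribosomal centring. The helicase subunit gene Mcm5 measured 1739, 1954 and 1757 in aly and 73.8, 52.4 and 97.3 in yw, 20.7-fold higher, and the origin recognition gene Orc2 1071, 1167 and 1029 in aly and 70.6, 44.4 and 58.0 in yw. RfC3 (2.86) and Mcm2 (2.87) followed. CycE, the G1/S cyclin, was dim in both genotypes. Of 14 spindle checkpoint and mitotic genes 12 were higher and 2 not called (median 1.85). With ribosomal centring 7 were higher and 2 lower. Mad1 measured 2785, 2575 and 2781 in aly and 188, 156 and 208 in yw, and Bub3 6796, 6934 and 6790.0 in aly and 640.2, 523 and 608 in yw.

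Chromatin regulators of the Polycomb and trithorax groups, which keep genes repressed or active, were higher on the deposited scale. Of 8 measured genes of Polycomb repressive complex 2 there were 7 higher and 1 not called (median 1.77), with 2 called after ribosomal centring. The largest rise was that of esc, a core subunit, with 1161, 1341 and 1074 in aly and 97.0, 56.7 and 91.7 in yw, and it was called with ribosomal centring as well (2.71). E(z), the methyltransferase, measured 686, 667 and 652 in aly and 182, 171 and 198 in yw and was not called with that centring (0.84). Of 6 genes of Polycomb repressive complex 1 and PhoRC 4 were higher (1 with ribosomal centring), led by the ubiquitin ligase gene Sce (4438, 4655 and 4506 in aly and 396, 189 and 346 in yw). Of 11 trithorax group genes 8 were higher (3 higher and 1 lower with ribosomal centring), led by mor (2.73) and trr (2.16). All these counts stand beside 28.2% of all genes higher, and 1501 of 11982 with ribosomal centring.

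Genes of stem cells and spermatogonia were called higher at about the share of all genes. Of 14 measured ones 4 were higher and 10 not called, with a median of 0.05, beside 28.2% of all genes. With quantile normalization 2 were higher, and with ribosomal centring 2 were higher and 3 lower. Of all 11982 genes 1501 were higher and 3762 lower with ribosomal centring. The differentiation gene bam measured 651, 648 and 572 in aly and 67.2, 36.5 and 66.3 in yw, and the germline innexin zpg 371, 367 and 421 in aly and 47.8, 36.0 and 50.2 in yw. The call of tut (1.15) was lost without yw replicate 2 (0.91), and that of Stat92E (1.14) with quantile normalization (0.89). Of 25 genes of the piRNA pathway, which silences transposons in the germ line, 16 were higher, 1 lower and 8 not called (median 1.62), and with ribosomal centring 8 were higher and 4 lower. The Tudor-domain gene tej measured 574, 463 and 532 in aly and 36.2, 36.2 and 40.3 in yw, and tapas was at 3.09. The lower one was papi, a mitochondrial Tudor protein, with 338, 288 and 362 in aly and 1814, 2034 and 2318 in yw, and without yw replicate 1 the count of lower genes was 2.

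**Figure D4:**
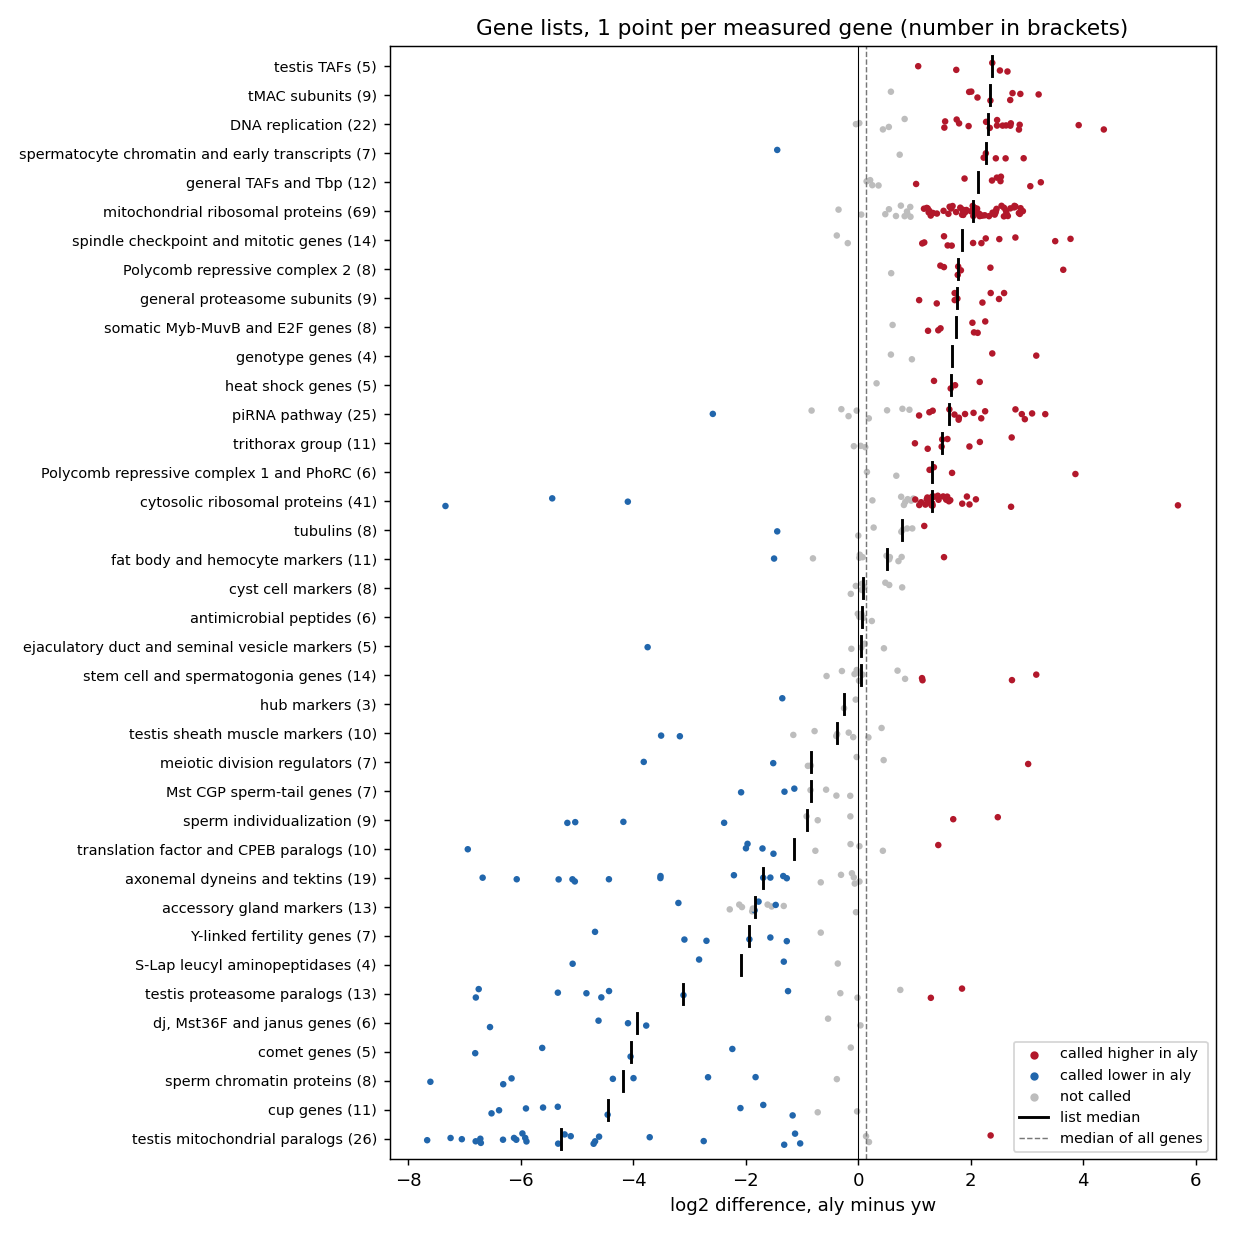
Difference of aly minus yw (log2, horizontal axis) for every measured member of the gene lists, 1 point per gene, with red for called higher, blue for called lower, grey for not called, black bars at list medians and a dashed line at the median of all genes (0.15). Lists of spermatid function lie at the bottom with medians down to -5.28, and transcription, replication and mitochondrial ribosome lists at the top with medians above 2.

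The largest rises outside these lists were found for genes of other kinds. CG4133 measured 1502, 1452 and 1466 in aly and 24.4, 30.8 and 21.6 in yw (36.0-fold), and CG10132 1531, 1491 and 1352 in aly and 52.8, 46.8 and 59.5 in yw. The SAGA subunit gene wda measured 2439.8, 2316 and 2297 in aly and 115, 84.4 and 109 in yw, and Bap60, a subunit of the Brahma chromatin remodeller, 4486, 4964 and 3845 in aly and 258, 167 and 223 in yw. The zinc-finger gene grau (4.27), babos (4.29), CG12236 (4.33) and CG33111 (4.22) completed the 10 largest. Non-overlap of the aly and yw arrays was a condition for choosing these 10, so it is no further result. Heat shock genes gave 4 higher and 1 not called of 5, with Hsf, the heat shock factor, at 1956, 1812 and 1883 in aly and 416, 349 and 469 in yw and Hsp26 at 1.65. With ribosomal centring 1 of the 5 was called. Of all genes 28.2% were higher on the deposited scale, and 1501 of 11982 with that centring.

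To see where the change in aly differs from that of the other arrest mutant, aly arrays were set directly against sa arrays, a contrast that equals the difference of the effects against yw. Of 11982 genes 2366 (19.7%) were called, 943 (7.87%) higher and 1423 (11.9%) lower in aly than in sa. This balance depended on the scale. With ribosomal centring 1238 were higher and 1290 lower, with quantile normalization 1216 and 1294, and with median centring 1361 and 1242. Among the 1795 genes lower in aly than in yw, 1173 (65.3%) were lower in aly than in sa too, 603 (33.6%) were not called and 19 (1.06%) were higher. The median of all genes in this contrast was 0.10. Among the 3382 genes higher in aly than in yw, 818 (24.2%) were higher than in sa, 2543 (75.2%) not called and 21 (0.621%) lower. Both sets were chosen on the same aly arrays that enter this contrast, so agreement in direction was partly set by the choice. Of the 214 genes near the floor in aly, 197 were lower than in sa. These genes were chosen for low aly values, which enter this contrast too, so the count was largely set by the choice.

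CG9016 was the gene with the deepest difference from sa, at 51.1, 60.2 and 49.8 in aly, 7568, 5507 and 3829.9 in sa and 18469.6, 18547 and 18633 in yw (-6.29, limma adjusted p = 2.86e-09). CG30487 measured 17.3, 17.2 and 15.6 in aly, 3009, 2113 and 1623 in sa and 6396, 4966 and 6123 in yw. For both genes the 3 genotypes did not overlap and sa lay between. The other deepest were CG30039 (-6.16), CG16719 (-6.06), CG12229 (-5.98) and CG31870 (-5.89). By list, 20 of 26 testis mitochondrial paralogs were lower in aly than in sa and 0 higher. Of all genes 11.9% were lower and 7.87% higher on the deposited scale, which stands beside each list count here. For tomboy20 the values were 34.1, 55.6 and 41.6 in aly, 2998, 2360.1 and 2873 in sa and 9171, 8317 and 9392 in yw. Axoneme genes gave 7 lower and 2 higher of 19, testis proteasome paralogs 6 lower and 2 higher of 13, and cup genes 5 lower and 0 higher of 11. Among the meiotic regulators, bol measured 373, 343 and 360.2 in aly, 3045, 2658 and 1138 in sa and 4409.5, 5936 and 5491 in yw, and CycB 55.1, 64.4 and 75.8 in aly, 663, 675 and 658 in sa and 219, 170.2 and 261 in yw. CycB was thus lowest in aly and highest in sa, and the sa arrays were called higher than yw too (1.57, limma adjusted p = 1.82e-06). The fall of bol against sa (-2.50) was -0.81 and not called once its probe sets were averaged, but the other 2 probe sets were at the floor in aly and in yw, so that averaging dilutes the reading. The levels of twe were 70.5, 53.5 and 64.7 in aly, 146, 163 and 154 in sa and 149.9, 93.8 and 155 in yw, and the call against sa (-1.12) was lost with quantile normalization (-0.76), median centring (-0.94) and ribosomal centring (-0.98).

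Some spermatid genes were near the floor in both mutants. Mst36Fa measured 58.6, 51.1 and 37.3 in aly, 67.6, 34.8 and 24.9 in sa and 1089.6, 1909 and 1829 in yw, and t-cup 18.5, 17.7 and 15.7 in aly, 60.1, 22.7 and 23.8 in sa and 3219, 2722 and 3174 in yw. Neither was called between aly and sa. The testis dynein gene Dhc36C was higher in aly than in sa, at 494, 383 and 352 in aly, 179.6, 149 and 143 in sa and 863, 1350.0 and 976 in yw, as was the comet gene hale (1.17). 

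In the direction of higher levels in aly, sa led, at 7616, 6878 and 7589.6 in aly and 112, 112 and 96.2 in its own mutant. The uncharacterised gene CG7907 measured 7451, 6882 and 6374 in aly, 439, 463 and 512 in sa and 735, 544 and 725 in yw. The tMAC gene topi measured 8962, 8134 and 7692 in aly, 536, 554 and 636 in sa and 1309.6, 1131 and 1326 in yw, and tbrd-2 8788, 6377 and 5806 in aly, 482, 785 and 621 in sa and 841, 832 and 976 in yw. For CG7907, topi and tbrd-2 all aly arrays were thus above all sa and yw arrays, and topi was called lower in sa than in yw (-1.11). Of the 9 tMAC genes 3 were higher in aly than in sa (topi 3.81, vis 2.09 and tomb 1.27) and 0 lower. Of the 5 testis TAFs 2 were higher, sa and mia (1.17), and 1 lower, Taf12L (-1.20). CG33111 (3.64), CG10486 (3.48) and CG4133 (3.47) were the other members of the top 6. Of 69 mitochondrial ribosomal protein genes 1 was higher and 0 were lower than in sa by limma. Among 22 replication genes 8 were higher and 0 lower. These list counts stand beside 7.87% of all genes higher than in sa and 11.9% lower, all on the deposited scale.

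**Figure D5:**
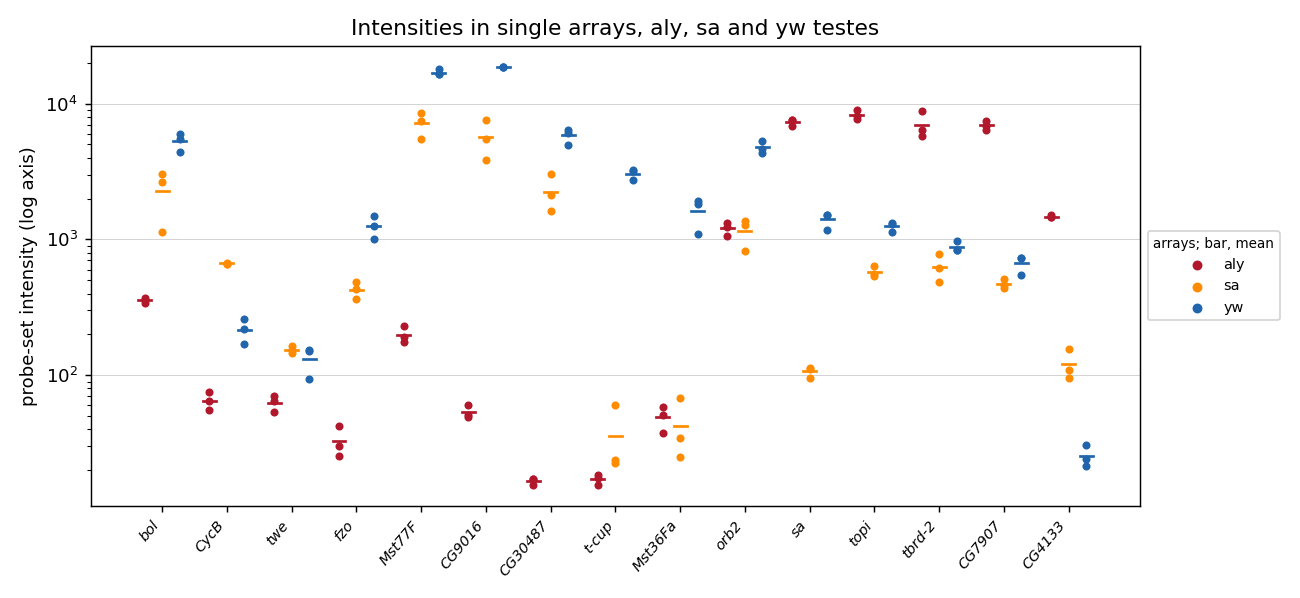
Intensities (vertical log axis) of 15 genes in single arrays of aly (left, red), sa (middle, orange) and yw (right, blue), with a bar at each mean. bol, fzo, Mst77F and CG9016 step up through aly, sa and yw, CycB is brightest in sa, Mst36Fa and t-cup are dim in both mutants, and topi, tbrd-2 and CG7907 are highest in aly.

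The called genes were spread over the chromosomes unevenly. On the X 577 of 1869 genes (30.9%) were higher and 211 (11.3%) lower in aly. On arm 2L 622 of 2203 genes (28.2%) were higher and 400 (18.2%) lower, the largest lower share of the 5 large arms. On 2R, 3L and 3R between 26.8 and 29.3% were higher and between 14.4 and 15.3% lower. Chromosome 4, with 65 genes, had 4 higher and 8 lower, and 3 of the 4 genes assigned to the Y were lower. No test was run on these shares.

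RNA of other tissues could reach whole-testis samples and was read from marker lists. Of 13 measured accessory gland genes 4 were called lower in aly, 0 higher and 9 not called. The seminal protein gene Acp36DE measured 317, 139 and 545 in aly and 1588, 10456 and 1306 in yw. The mean log2 level of this list ran from 8.53 to 9.26 in the aly arrays and from 9.58 to 12.23 in the yw arrays, with the top value in yw replicate 2. The count stood beside 15.0% of all genes called lower, and it was 2 with the replicate number as a block. With yw replicate 2 left out 1 member was called, without yw replicate 3 it was 10, and without any other single array of either genotype it was 1 or 2. With ribosomal centring the count was 12, beside 3762 of all 11982 genes called lower. The ejaculatory duct gene Dup99B, with 132, 469 and 49.8 in aly and 2219, 11631 and 419 in yw, lost its call without yw replicate 2 (-2.55), and likewise without yw replicate 1 or aly replicates 1 or 3. The part of this RNA in the results above was not tested.

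Among 10 testis sheath muscle markers 2 were lower and 8 not called, beside 15.0% of all genes called lower. Without aly replicate 3 it was 4 lower, and with ribosomal centring 8. With that centring 3762 of all 11982 genes were lower. The muscle actin gene Act87E measured 431, 371 and 707 in aly and 5503, 5753 and 5699 in yw, and the titin-like gene sls 56.7, 29.8 and 32.7 in aly and 439, 591 and 411 in yw. The list mean ran from 7.35 to 7.96 in aly and from 8.30 to 8.95 in yw. The 8 cyst cell markers were all not called (list mean 6.48 to 6.76 in aly and 6.32 to 6.56 in yw). Of 3 hub markers CadN was lower (-1.35), while upd1, the signal that defines the hub, was dim in both genotypes. Among 11 fat body and hemocyte markers the hemocyte gene Hml was higher (1.53, 0.59 and not called with ribosomal centring) and Lsp2 lower (-1.49), a call lost on leaving out yw replicate 1 or 3 or aly replicate 1 or 3. The 6 antimicrobial peptide genes were not called. These counts and those of the tubulins stand beside 28.2% of all genes called higher and 15.0% called lower. Of 8 tubulins 1 was higher, the maternal gene alphaTub67C (1.18, 0.24 and not called with ribosomal centring), 1 lower, betaTub85D, and 6 not called, and without aly replicate 2 a further one, betaTub60D, passed (1.02).

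Genes with several probe sets allow a check of single readings. Of 1094 such genes 387 had at least 1 probe set called, and in 115 of these all of the gene's probe sets were called the same way. In 8 genes, AMPdeam, CG42258, COX7C, Hrb98DE, TrpRS, alph, gpp and l(1)G0196, probe sets were called in opposite directions. For COX7C the brighter probe set was at 1.00, with 3330.2, 4226 and 3013 in aly and 2066, 1730.0 and 1459 in yw, a borderline call that was lost without aly replicate 2 (0.86), yw replicate 2 or yw replicate 3 (0.88), and the other was at -4.75. Which transcripts these probe sets read was not analysed here.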

How the data were processed

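RNA of whole testes was hybridised to Affymetrix Drosophila Genome 2.0 arrays, with 3 arrays for each of 4 genotypes, and per the labels' protocols each was a separate biological sample. The deposited values were linear probe-set intensities. The authors' design text names RMA, and the submitters' processing notes name MAS5, RMA and limma without versions. How the arrays were scaled is not given in the sources used here, and a probe set near the lowest intensities has no reliable fold. Arrays give no read depth, and their number, 3 a group, limits the precision.

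Of 18952 probe sets 183 controls were left out. GEO's platform annotation gave 1 gene symbol to 13647 of the 18769 others, several to 402 and none to 4720, and 13544 matched RefSeq Release 6 genes. A gene was read from its probe set with the highest mean log2 value over all 12 arrays. All 12 arrays were fitted as log2(intensity + 16), with 1 mean per genotype, in limma 3.58.1 (R 4.3.3) with eBayes and Benjamini-Hochberg adjustment over all 18769 probe sets. Calls needed an adjusted p under 0.05 and a fold of at least 2. Tables and figures used Python 3.11.15, pandas 2.3.3 and matplotlib 3.10.9. On simulated data for aly minus yw (18769 probe sets) the fit recovered 99% of 100 probe sets changed by 1.5 on the log2 scale. It recovered 100% of 100 changed by 2.5, with 0 false calls. The simulated noise was independent and normal, with the same spread in all genotypes, taken from this fit. In the data the mean SD on the log2 scale was 0.114 in aly and 0.187 in yw. The simulation thus checks the code and gives no error rate for these arrays. Alternatives covered scaling, pseudocounts, filters, thresholds, array weights, probe-set choice, a replicate block and arrays left out.

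Genes were named by a rule: the mutated genes, all tMAC and testis TAF genes, twe, bol, CycB, Mst87F, dj and fzo, the 10 largest called differences each way with non-overlapping arrays, up to 4 members a list with the largest differences, the 6 largest differences from sa each way, and genes with probe sets called in opposite directions. All other genes named were chosen after their values were seen, and so were the paralog pairs. Members and lists were chosen with earlier results of these data known.

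The replicate numbers did not pair the samples. Deviations from the group means of same-numbered aly and yw arrays correlated at -0.212, -0.0977 and 0.0579.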

Additional observations from a re-analysis of the deposited data

How the results depend on the processing

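With ribosomal centring 1501 genes were higher and 3762 lower in aly than in yw. Without a fold minimum 9197 probe sets were called, 5114 genes were higher, and 6426 genes were called between aly and sa (3722 higher, 2704 lower). Requiring the fold itself to be tested above 2 (treat) gave 1326 calls between aly and sa, 324 of them higher. Intensity limits of 50 and 500 in place of 32 and 1000 gave 579 genes near the floor in aly alone and 14 in yw alone. With probe sets averaged per gene COX7C turned to -1.87 and Hrb98DE to 0.40, because their probe sets go opposite ways. Called genes between aly and yw ran from 4104 with treat to 7585 without a fold minimum, with 5452 at a pseudocount of 1 and 4673 at 64. Leaving out arrays gave 5044 to 5250 called genes between aly and yw, 5826 to 6058 probe sets and 2324 to 2669 genes between aly and sa.

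The replicate block, whose numbers do not pair the samples, gave 5172 called genes between aly and yw and 2358 between aly and sa, and all 370 named gene differences kept their side of the threshold. No aly array correlated best with the yw array of its own number.

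The planned motif description of promoters was not run, because no promoter sequence was used here. Dim probe sets limit what can be read: a gene near the lowest intensities in both genotypes, such as CycE or upd1, gives no evidence of equal levels. The genotypes differ in the germ cell stages present, and the share of this in each difference was not tested.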

Other observations

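Among the 1795 genes lower in aly than in yw, 19 were higher in aly than in sa, so that they were lowest in sa. The uncharacterised gene CG12506 measured 312, 274 and 385 in aly, 106, 44.3 and 81.0 in sa and 4283, 2733 and 3932 in yw (1.91 for aly minus sa). The sugar transporter gene sut3 measured 992, 907 and 853 in aly, 296, 257 and 227 in sa and 2280.3, 2221 and 2702 in yw, and CG16853 593, 612 and 607 in aly, 131, 100.1 and 147 in sa and 2569.8, 2097 and 2501 in yw. The arrays of the genotypes did not overlap in these 3. The order sa, aly, yw was a condition for the set, so it is no further result. The set also held ntc, which encodes an F-box protein of sperm individualization, with 1989, 1764 and 1956 in aly, 1126, 908 and 815 in sa and 4474, 4845 and 5285 in yw, a call against sa of 1.00 at the threshold. These genes were chosen after their values were seen.

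Conversely 21 genes were higher in aly than in yw but lower than in sa. CCHa1, a neuropeptide gene, measured 424, 410.3 and 315 in aly, 1159.6, 965 and 786 in sa and 26.9, 34.8 and 32.3 in yw. The autophagy kinase gene Atg1 measured 785, 801 and 834 in aly, 2191, 1666 and 1666 in sa and 179, 143 and 205 in yw, and the DNA repair gene rad50 562, 463 and 454 in aly, 1129, 1071 and 924 in sa and 174, 241 and 227 in yw. The kinetochore gene Spc105R (-1.18 for aly minus sa) and the centriole gene ana3 (-1.14) were of this kind too. That sa was highest was a condition for this set, so it is no further result.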
